A study of Mus musculus with 36 samples.

Results

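The 10 genes described here encode the enzymes that assemble purine and pyrimidine nucleotides from small precursors in mouse B3 pre-B cells. They are Ppat, Gart, Pfas, Paics, Adsl and Atic of the purine route to IMP, Impdh2 and Gmps of the branch from IMP to GMP, and Cad and Umps of the pyrimidine route to UMP. They were chosen by symbol for their place in these routes, with earlier results of these data known. All 10 were found among the 12762 genes of the table. In de novo synthesis the purine ring is built step by step on a phosphoribosyl sugar, with formyl groups supplied by the folate cycle, whereas the pyrimidine ring is closed first and joined to the sugar afterwards. Several steps sit on shared polypeptides in mammals, so a few genes cover most of each route. Cells that divide draw on both routes for RNA and DNA, and lymphoid precursors are known to raise and lower them with their growth.

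RNA was sequenced from 36 libraries, 3 for each of 12 groups made of 2 cell lines and 6 times. Ikaros cells were B3 cells that had received a retrovirus with HA-tagged Ikaros fused to the ERt2 ligand-binding domain, followed by an IRES and GFP, and control cells had received ERt2 with IRES and GFP alone. Ikaros, encoded by Ikzf1, is a zinc-finger transcription factor of lymphoid development, and the ERt2 domain carries the fusion into the nucleus once 4-hydroxytamoxifen (4-OHT) is given. Both lines were sorted on GFP as pools, and each line is 1 transduced population. Cells were collected at 0, 2, 6, 12, 18 and 24 h after 4-OHT at 0.5 µM. The sample labels list this dose for every library, including 0 h, whereas the methods of the study state that 0 h cells had no 4-OHT and were collected separately. Replicates 1 to 3 stand for experimental batches 1, 2 and 4 at 0 h and for batches 1, 3 and 4 at later times.

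The fusion was visible in the libraries. Ikzf1 lay between 13.95 and 14.85 in the 18 control libraries and between 19.63 and 20.93 in the 18 Ikaros libraries, on the deposited log2 scale. All 10 pre-B markers that were checked (among them Cd79a, Pax5, Ebf1 and Igll1) were in the table. Of 10 markers of other blood cells 3 were in the table (Itgam, Lyz2 and Klrb1c), and their mean levels ranked between the 1.78th and the 7.59th percentile of all genes. Medians of the libraries lay between 11.70 and 11.73. The depth behind the values is unknown because the deposited values are not counts.

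At 24 h all 10 members were lower in Ikaros cells than in control cells, from 1.74-fold for Impdh2 to 4.69-fold for Gart and Atic. Of all genes, 31.9% were called lower in this comparison, which means a limma adjusted p under 0.05 with Benjamini-Hochberg adjustment over the 12762 genes. The median log2 difference was -1.86 over the members and -0.01 over all genes. In every member the 3 Ikaros libraries lay below the 3 control libraries. The share of all genes whose groups stood apart in this way was not counted, here or at other times. In bulk RNA, less transcript per cell and fewer cells that carry the transcript cannot be told apart.

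Ppat encodes the amidotransferase of the committed step of purine synthesis. Its control values at 24 h were 13.46, 13.58 and 12.93 and its Ikaros values 11.25, 11.36 and 11.11 (replicates 1 to 3, log2). The 3rd control library was the lowest of its group, yet it stood far above every Ikaros library. The log2 difference was -2.08 ± 0.28 (SE, n = 3 and 3; adjusted p = 2.71e-07), a 4.23-fold lower level, and its error was the widest of the members.

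Gart encodes a trifunctional enzyme that performs 3 of the next steps, including the first transfer of a formyl group. It read 14.82, 14.89 and 14.64 in control cells and 12.37, 12.80 and 12.48 in Ikaros cells at 24 h. The log2 difference was -2.23 ± 0.12 (SE; adjusted p = 6.56e-15). Pfas encodes FGAM synthase, which adds a nitrogen taken from glutamine. It read 13.73, 13.76 and 13.69 in control cells and 11.82, 12.06 and 11.75 in Ikaros cells. These control libraries were close together, and the difference was -1.85 ± 0.18 (adjusted p = 1.24e-09).

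Paics encodes the bifunctional carboxylase and SAICAR synthetase. It read 15.60, 15.58 and 15.65 in control cells and 14.29, 14.65 and 14.34 in Ikaros cells, with a log2 difference of -1.18 ± 0.10 (SE; adjusted p = 6.62e-11). Adsl encodes adenylosuccinate lyase, which acts on the way to IMP and again on the branch to AMP. It read 14.16, 14.27 and 14.07 in control cells and 12.63, 12.80 and 12.77 in Ikaros cells, a difference of -1.43 ± 0.13 (adjusted p = 2.03e-10). Atic encodes the bifunctional enzyme that transfers the last formyl group and closes the ring to IMP. It read 15.10, 15.24 and 15.06 in control cells and 12.78, 13.07 and 12.85 in Ikaros cells, a difference of -2.23 ± 0.11 (adjusted p = 2.31e-15).

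The members on the GMP branch, Impdh2 and Gmps, had smaller differences. Impdh1, a paralog of Impdh2 outside the members, is given with the gene pairs below and fell more (-2.21). Impdh2 encodes IMP dehydrogenase, which oxidises IMP to XMP, and it read 16.68, 16.83 and 16.45 in control cells and 15.86, 15.76 and 15.95 in Ikaros cells at 24 h. Its log2 difference was -0.80 ± 0.15 (SE; adjusted p = 3.5e-05), the smallest of the 10. Gmps encodes GMP synthetase, which aminates XMP. It read 14.27, 14.39 and 14.43 in control cells and 13.49, 13.41 and 13.43 in Ikaros cells, a difference of -0.92 ± 0.09 (adjusted p = 9.71e-10). All 3 Ikaros libraries of Gmps lay close together, below the lowest control library.

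Both pyrimidine members were among those with the larger differences. Cad encodes the trifunctional enzyme that makes dihydroorotate. It read 14.83, 14.83 and 14.69 in control cells and 12.90, 12.98 and 12.86 in Ikaros cells, a log2 difference of -1.87 ± 0.11 (SE; adjusted p = 8.66e-14). Umps encodes the bifunctional enzyme that turns orotate into UMP. It read 14.61, 14.55 and 14.52 in control cells and 12.37, 12.67 and 12.23 in Ikaros cells, a difference of -2.14 ± 0.11 (adjusted p = 3.96e-15).

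**Figure D1:**
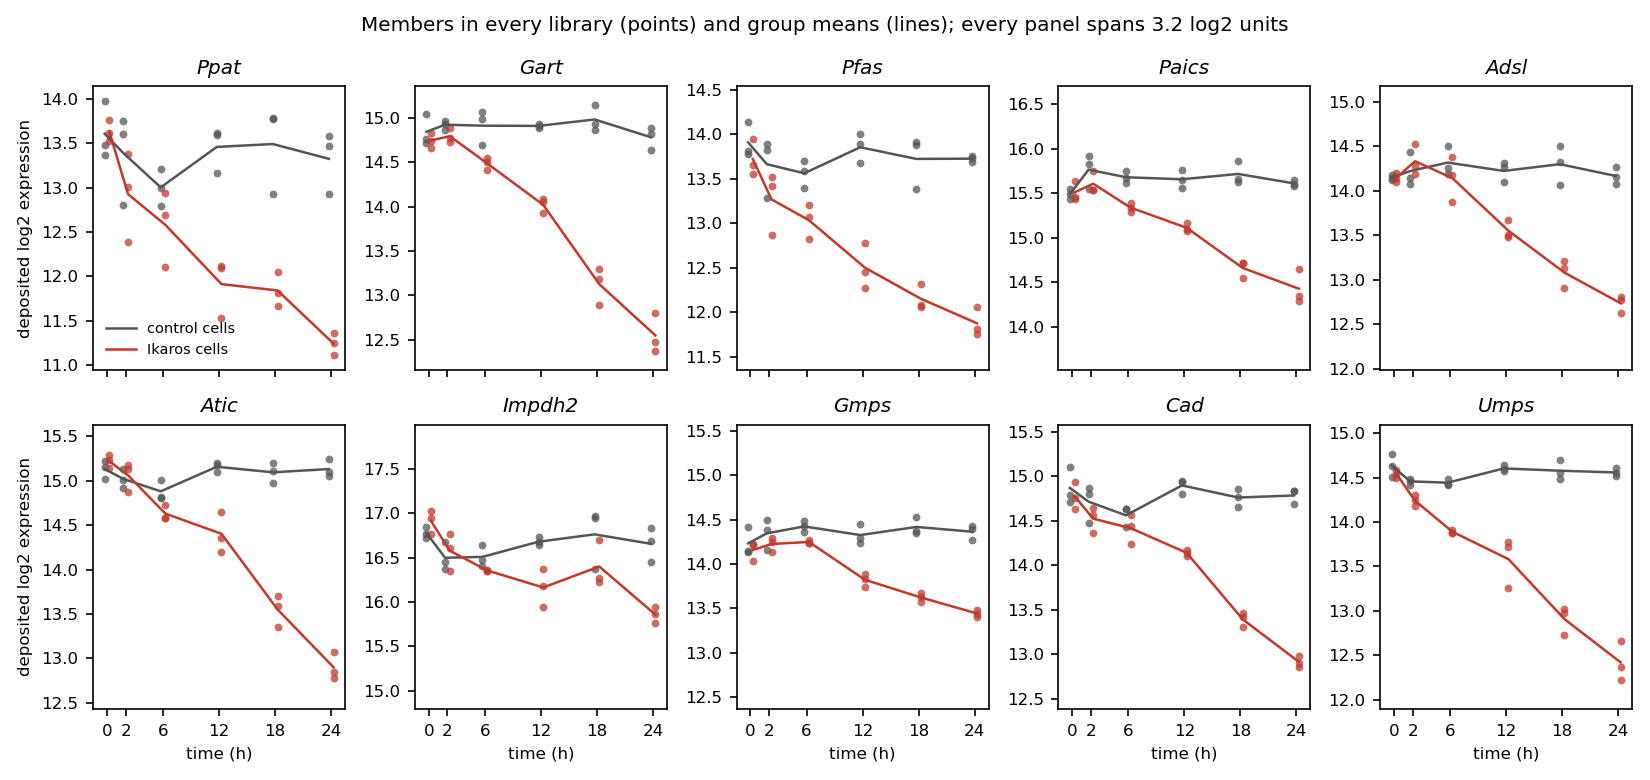
Deposited log2 expression (y axis) of each of the 10 members against time in hours (x axis), with a point for each library, slightly offset by line, and a line through the means of 3 libraries; grey marks control cells and red marks Ikaros cells, and every panel spans the same height. At 24 h the 3 Ikaros libraries lie below the 3 control libraries in all 10 panels.

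The members fell into an order at 24 h, and of the differences between members only that of Ppat and Paics was tested (given with the neighbouring genes). The 95% confidence intervals of the 6 largest falls overlapped with each other, for example -2.47 to -1.99 for Gart and -2.10 to -1.64 for Cad. Those of Gmps (-1.10 to -0.74) and Impdh2 (-1.10 to -0.49) overlapped with each other and with that of Paics (-1.39 to -0.98), and not with that of Cad.

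At 0 h no member was called between the lines. The log2 differences ran from -0.19 for Pfas to 0.13 for Impdh2, with adjusted p between 0.67 and 0.994 by limma. Of all genes, 3.72% were called lower at 0 h. An unadjusted p under 0.05 was reached by 0 members and by 2424 of all 12762 genes. The 0 h values of Umps, which later fell among the most, were 14.51, 14.64 and 14.76 in control cells and 14.54, 14.50 and 14.59 in Ikaros cells. Those of Atic were 15.02, 15.15 and 15.22 in control cells and 15.14, 15.23 and 15.28 in Ikaros cells. Both genes overlapped between the lines before 4-OHT.

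At 2 h no member was called lower, against 9.88% of all genes called lower. An unadjusted p under 0.05 was reached by 1 member (Pfas) and by 3872 of all 12762 genes. The largest differences were -0.46 ± 0.28 for Ppat (adjusted p = 0.277) and -0.40 ± 0.18 for Pfas (adjusted p = 0.136). With the batch as a replicate block, limma called Pfas (adjusted p = 0.0474). With the 0 h cultures treated as batches of their own in that block, it called Pfas (adjusted p = 0.0104) and Ppat (adjusted p = 0.0371). Control 2 h replicate 3 decided part of this, since Pfas was called with that library left out, and Pfas and Ppat were called with replicate 3 left out of every group. The shares of all genes called under these alternative fits, here and at other times, are not given.

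At 6 h 4 members were called lower, Gart, Pfas, Paics and Umps, against 19.2% of all genes. Umps changed most, from control values of 14.42, 14.42 and 14.48 to Ikaros values of 13.91, 13.88 and 13.88, and its groups stood well apart. The log2 differences were -0.55 ± 0.11 for Umps (adjusted p = 0.000273), -0.53 ± 0.18 for Pfas, -0.42 ± 0.12 for Gart and -0.34 ± 0.10 for Paics. All 30 differences taken within a batch (10 members in 3 batches) were below 0, from -0.69 to -0.06. The replicate block also called Atic (-0.25, adjusted p = 0.0275), and with the 0 h cultures as batches of their own it called Atic (adjusted p = 0.0123) and Ppat (-0.42, adjusted p = 0.0354). The count was 2 with replicate 1, 2 or 3 left out of every group, and 1 (Umps) with only the compared groups in the fit.

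At 12 h all 10 members were called lower, against 22.8% of all genes. Ppat (-1.54 ± 0.28, adjusted p = 4.68e-05) and Pfas (-1.36 ± 0.18, adjusted p = 7.53e-07) led. Ppat read 13.59, 13.62 and 13.17 in control cells and 12.12, 12.09 and 11.53 in Ikaros cells. Pfas read 14.00, 13.89 and 13.68 in control cells and 12.45, 12.78 and 12.28 in Ikaros cells. The other 8 differences lay between -1.02 (Umps) and -0.50 (Gmps), and all 10 members kept their groups apart.

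Members had covered different shares of their 24 h difference by mid-course. By 12 h Ppat showed 74.2% and Pfas 73.2% of the difference seen at 24 h. Umps showed 47.8%, Adsl 46.9%, Paics 46.1%, Cad 40.5%, Gart 39.8% and Atic 33.8%, and the GMP branch lay between, with 64.6% for Impdh2 and 54.7% for Gmps. These shares are ratios of fitted values and were not tested. By 18 h they ran from 45.5% for Impdh2 to 89.3% for Paics.

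At 18 h all 10 members were again called lower, against 29.2% of all genes, and the groups of 9 members stood apart. The differences were between -1.85 for Gart and -0.36 for Impdh2. Impdh2 was the exception to separation. It read 16.94, 16.97 and 16.37 in control cells and 16.23, 16.27 and 16.70 in Ikaros cells. Within batches 1 and 3 its difference was -0.72 and -0.69, whereas in batch 4 it was 0.33, the only 1 of 30 within-batch differences above 0 at this time. The pooled call for Impdh2 (-0.36 ± 0.15, adjusted p = 0.0365) did not pass with any of control 18 h replicate 1 or 2 or Ikaros 18 h replicate 1 or 2 left out (adjusted p = 0.159, 0.181, 0.159 and 0.129) or with only the compared groups in the fit (adjusted p = 0.208). Without replicate 1, 2 or 3 of every group the difference was -0.18, -0.20 and -0.71 (adjusted p = 0.465, 0.478 and 0.000166), and without control or Ikaros 18 h replicate 3 alone it was -0.56 and -0.51 and passed the test. At 12 h it was lost only with replicate 2 left out of every group (adjusted p = 0.0736).

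**Figure D2:**
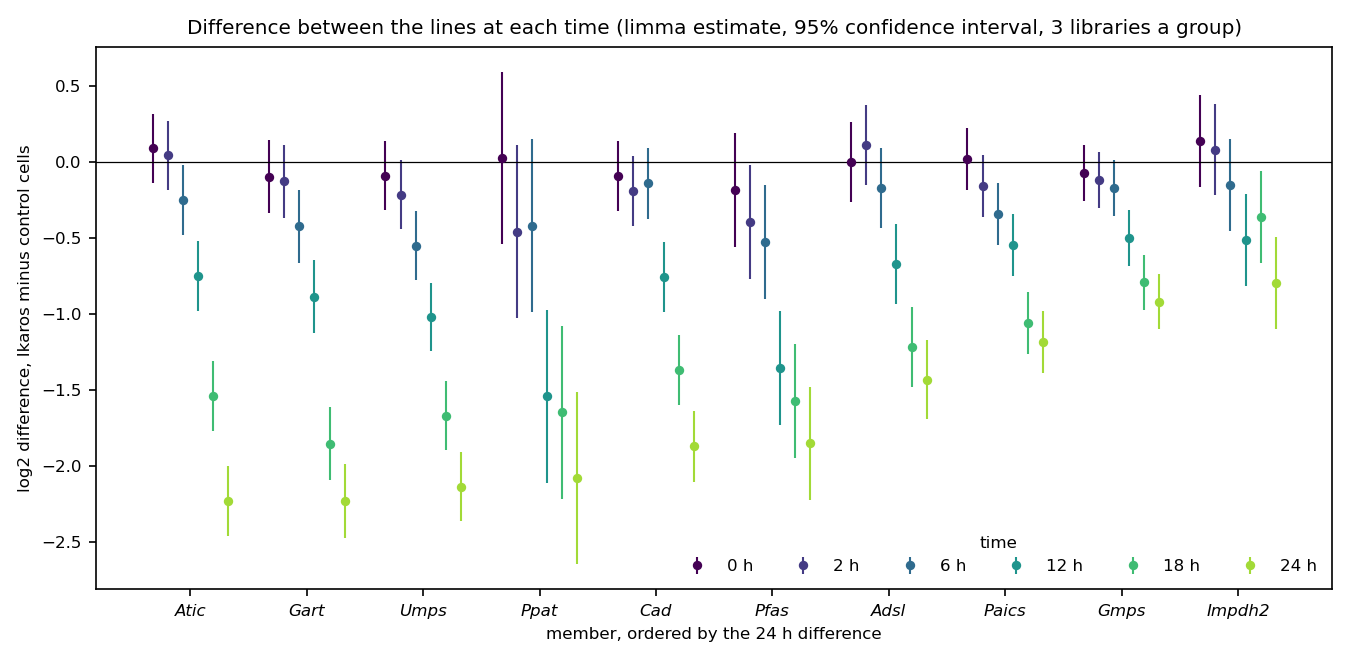
Log2 difference between Ikaros and control cells (y axis) for each member (x axis, ordered by the 24 h value), with a colour for each time, limma estimates as points and 95% confidence intervals as bars. Differences lie around 0 at 0 h and below 0 in all members from 6 h on, reaching -2.23 for Atic and -0.80 for Impdh2 at 24 h.

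Because the 0 h cultures already differed in other genes, each line difference was also compared with that at 0 h. At 2 h this change was called lower for 0 members and for 1.89% of all genes. At 6 h it was called for 1 member, Umps (-0.46 ± 0.16, adjusted p = 0.0428), and for 8.14% of all genes. Every 0 h or 6 h library other than control 0 h replicate 3 ended that call when it was left out, and with the 0 h cultures as batches of their own in the replicate block Atic was called as well (adjusted p = 0.0314). At 12 h it was called for 10 members and 14.3% of all genes, with 5 members left when replicate 1 was removed from every group and 4 when replicate 2 was. Impdh2 also missed it without Ikaros 0 h replicate 2 or Ikaros 12 h replicate 3 (adjusted p = 0.0509 and 0.0649). Gmps missed it with only the compared groups in the fit (adjusted p = 0.056).

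At 18 h the change from 0 h was called for 9 members, against 21.0% of all genes. Impdh2 missed it (-0.50 ± 0.21, adjusted p = 0.0549), and it passed without control 18 h replicate 3 (adjusted p = 0.00494), Ikaros 18 h replicate 3 (adjusted p = 0.0143) or Ikaros 0 h replicate 1 (adjusted p = 0.0404). With all libraries kept, Impdh2 passed when genes under the 25th percentile of mean expression were dropped (adjusted p = 0.0456). It also passed with the trend and robust settings of eBayes (adjusted p = 0.0479). Ppat missed the 18 h call without replicate 1 or 2 of every group (adjusted p = 0.0537 and 0.07). At 24 h it was called for 10 members, against 24.2% of all genes, from -0.85 ± 0.13 for Gmps to -2.32 ± 0.16 for Atic (adjusted p = 3.22e-06 and 4.58e-12). Taken against 2 h, the earliest time at which both lines had 4-OHT, it was also called for 10 members, against 24.0% of all genes. Those changes ran from -0.80 ± 0.13 for Gmps to -2.27 ± 0.16 for Atic, in a comparison that uses no 0 h library. Without replicate 2 of every group Impdh2 missed the test against 0 h (adjusted p = 0.0836), and without replicate 1 or 2 of every group it missed that against 2 h (adjusted p = 0.0679 and 0.0533).

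Ikaros cells were next compared with their own 0 h libraries. At 2 h 0 members were called lower, against 9.61% of all genes. An unadjusted p under 0.05 was reached by 5 members and by 4427 of all 12762 genes. With the replicate block 4 were called, Ppat (-0.86, adjusted p = 0.00718), Pfas, Umps and Cad. With Ikaros 2 h replicate 1 left out the count was 2. Without the shares of all genes in those fits, these counts do not set the members apart from other genes. At 6 h 6 were called, Ppat, Pfas, Atic, Impdh2, Cad and Umps, against 15.6%, the replicate block added Gart (-0.31, adjusted p = 0.0348), and 3 were called with replicate 2 removed from every group. At 12, 18 and 24 h all 10 were called, against 22.2%, 26.5% and 29.6% of all genes. Leaving out replicate 1 or 2 of every group ended the calls of Gmps at 12 h (adjusted p = 0.0508 and 0.0575) and of Impdh2 at 18 h (adjusted p = 0.0579 and 0.16), and leaving out replicate 2 also that of Adsl at 12 h (adjusted p = 0.0502). With only the compared groups in the fit, Gmps was not called at 12 h either (adjusted p = 0.0578). By 24 h the fall from 0 h was 5.23-fold for Ppat, from 13.52, 13.61 and 13.76 to the 24 h values given above. It was 4.99-fold for Atic, 4.57-fold for Gart and 4.36-fold for Umps. Gmps fell least, 1.64-fold.

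Successive times in Ikaros cells were then compared. From 2 to 6 h 2 members fell, Atic (-0.43) and Umps (-0.35), against 5.59% of all genes. From 6 to 12 h 5 fell, Adsl (-0.59), Pfas (-0.54), Gart (-0.47), Gmps (-0.43) and Umps (-0.31), against 9.87%. The replicate block called Ppat (adjusted p = 0.0225) and Cad (adjusted p = 0.047) as well in this interval, and with 0 h cultures as batches of their own also Atic (adjusted p = 0.0342), 8 in all. From 12 to 18 h 6 fell, led by Gart (-0.89) and Atic (-0.85), with Cad (-0.75), Umps (-0.68), Adsl (-0.47) and Paics (-0.45), against 13.5%. From 18 to 24 h 5 fell, Atic (-0.65), Gart (-0.58), Impdh2 (-0.54), Umps (-0.49) and Cad (-0.48), against 4.13% of all genes. In the fit reported, Umps thus passed the test in every interval after 2 h. With only the compared groups in the fit it passed in none (adjusted p between 0.052 and 0.363). Its 2 to 6 h call was lost without any 1 Ikaros 2 h or 6 h library (adjusted p between 0.0635 and 0.111). Its 6 to 12 h call was lost without any 1 Ikaros 6 h library or without Ikaros 12 h replicate 3. Its 18 to 24 h call was lost without Ikaros 18 h replicate 2 or Ikaros 24 h replicate 3. Outside the 6 to 12 h interval the replicate block added Adsl from 18 to 24 h (adjusted p = 0.0176). With 0 h cultures as batches of their own it added Gart from 2 to 6 h (adjusted p = 0.0468), Pfas from 12 to 18 h (adjusted p = 0.0176), and Adsl and Ppat from 18 to 24 h (adjusted p = 0.0123 and 0.017).

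The counts for these intervals changed with the samples in the fit. With only the compared groups in the fit, limma called 0, 0, 4 and 1 members in the 4 intervals. From 2 to 6 h the count was 0 without Ikaros 2 h replicate 1 and 1 without any other single library, and 0 without replicate 1 or 2 of every group. From 6 to 12 h it was 3 without Ikaros 6 h replicate 1 or 2 or Ikaros 12 h replicate 3, and 0 without replicate 2 of every group. From 12 to 18 h it was between 5 and 7, with Adsl lost without Ikaros 18 h replicate 1 (adjusted p = 0.0562). From 18 to 24 h it was 3 without Ikaros 18 h replicate 2, and 0 without replicate 1 or 2 of every group.

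In control cells, which were given the same drug, no member was called against 0 h at any time. Of all genes, 0.0470% were called in either direction after 2 h of drug. The share was 5.10% at 6 h and 0.0549% at 12 h, and it then came to 0.478% (18 h) and 0.470% (24 h). The members' differences at 24 h were between -0.28 for Ppat and 0.13 for Gmps (adjusted p from 0.591 to 0.997 by limma). An unadjusted p under 0.05 was reached at 24 h by 0 members and by 1498 of all 12762 genes. At 6 h it was reached by 4 members and by 3581 of all genes. The replicate block called 4 members lower at 6 h, Ppat (-0.76, adjusted p = 0.0233), Pfas (-0.49, adjusted p = 0.0295), Cad (-0.39, adjusted p = 0.0189) and Atic (-0.30, adjusted p = 0.0349). The share of all genes called under that block is not given here. The 3 control libraries at 6 h did not overlap the 3 at 0 h in 8 of the 10 members, some lower and some higher. At 2 h this held for 3 members and at 24 h for 2, and the share of all genes was not counted. The control values of Ppat lay between 12.80 and 13.21 at 6 h and read 13.48, 13.36 and 13.97 at 0 h, so its 6 h libraries lay below its 0 h libraries, and by 12 h they overlapped again.

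Some members share sequence or ground with other genes. In the GENCODE M21 annotation of GRCm38, which is the same assembly as mm10, Ppat (chr5:76913249-76951578, minus strand) and Paics (chr5:76951307-76967509, plus strand) stand head to head with starts 271 bases apart and overlapping ends, and Ppat also overlaps 2310040G07Rik on the plus strand. Gart (chr16:91621186-91646952, minus strand) has the start of Son, which encodes an RNA splicing factor, 554 bases away on the plus strand. Umps (chr16:33954782-33967038, minus strand) has the antisense gene Gm15829 over it, which was not in the table. Impdh2 (chr9:108560286-108565584, plus strand) overlaps Ndufaf3 on the other strand, and Gart, Pfas and Adsl hold short or non-coding genes within them. The libraries were stranded, but whether the counting used strand was not given in the sources used here, so reads in overlapping stretches may be shared. Cad (chr5:31054780-31078479), Atic (chr1:71557150-71579631) and Gmps (chr3:63976106-64022579), all on the plus strand, overlapped no annotated gene. Pfas lies at chr11:68985697-69008460 on the minus strand and Adsl at chr15:80948490-80970946 on the plus strand.

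Both head-to-head genes fell. The deposited levels of different genes were set against each other only within a library, to read how that difference shifted between the lines. Taking Ppat minus Paics in this way at 24 h, the log2 value was -2.29 ± 0.38 (SD, n = 3) in control cells and -3.18 ± 0.13 in Ikaros cells, the groups did not overlap, and the shift was -0.90. Son, by contrast, was not called between the lines at 0 to 18 h and was higher in Ikaros cells at 24 h (0.42 ± 0.18, adjusted p = 0.0432 by limma). Gart minus Son lay between -1.29 and -0.63 in control cells and between -3.68 and -3.53 in Ikaros cells, a shift of -2.65. The paralogs of IMP dehydrogenase were compared in the same way. Impdh1 was lower in Ikaros cells from 2 h on, with log2 differences of -0.53 at 2 h (adjusted p = 7.37e-05), -1.36 at 6 h (adjusted p = 3.97e-12) and -2.21 at 24 h (adjusted p = 3.46e-17), when that of Impdh2 was -0.80. Impdh1 minus Impdh2 lay between -1.44 and -1.15 in control cells and between -2.88 and -2.53 in Ikaros cells, a shift of -1.41. Each of the 3 shifts gave p = 0.1 in a two-sided exact permutation test (0.1 after adjustment over the 3 pairs), which is the smallest that 3 against 3 libraries allow.

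**Figure D3:**
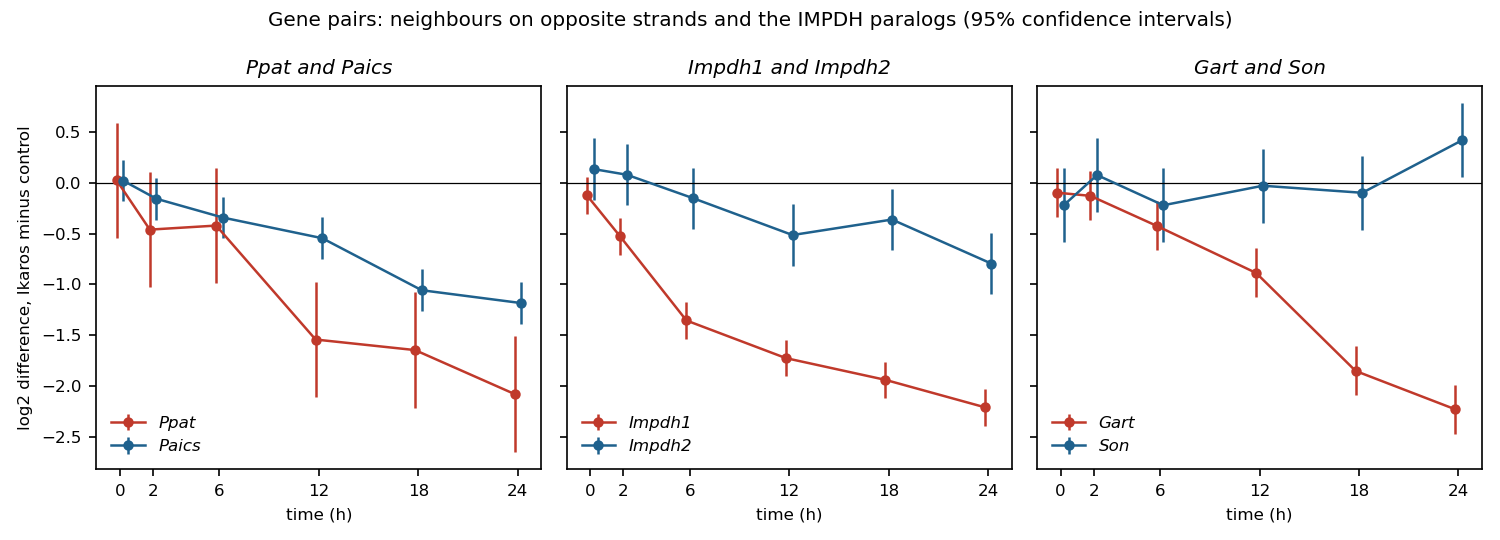
Log2 difference between Ikaros and control cells (y axis) against time in hours (x axis) for Ppat and Paics, for Impdh1 and Impdh2, and for Gart and Son, with limma estimates as points and 95% confidence intervals as bars. At 24 h Impdh1 stands at -2.21 against -0.80 for Impdh2, and Gart at -2.23 against 0.42 for Son.

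The start regions of the members were searched on both strands for the E-box CACGTG, the site class bound by Myc, Usf and related factors. They were also searched for TGGGAA, a form of the Ikaros site. The shorter stretch GGGAA, which some of the windows hold, was not counted. RefSeq windows of GRCm38.p6 from 250 bases before to 50 after the start were at hand for 9 members (not Pfas). CACGTG stood in 3 of the 9, against 7.15% of 32851 windows, and TGGGAA in 0 of the 9, against 25.6% of all windows. A match describes letters and not binding. The 3 windows with the E-box are shown so that its surroundings can be read, with the E-box in capitals. It starts 7 bases before the RefSeq start in Atic, 203 in Paics and 110 in Impdh2. The RefSeq start of Impdh2 lies inside the GENCODE gene given above, which begins at chr9:108560286. The E-box of Impdh2 thus lies after the GENCODE start. That of Atic spans the GENCODE start of Atic. The E-box of Paics lies inside the GENCODE gene Ppat, outside the window searched for Ppat. The windows are Atic at chr1:71556906-71557205, Paics at chr5:76951052-76951351 and Impdh2 at chr9:108560186-108560485, each 5′ to 3′ on the plus strand.
Atic: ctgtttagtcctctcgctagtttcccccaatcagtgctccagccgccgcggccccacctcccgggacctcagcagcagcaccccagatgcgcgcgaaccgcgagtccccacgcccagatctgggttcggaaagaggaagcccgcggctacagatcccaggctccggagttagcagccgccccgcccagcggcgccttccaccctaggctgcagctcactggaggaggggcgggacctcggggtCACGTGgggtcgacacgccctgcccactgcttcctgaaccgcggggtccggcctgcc
Paics: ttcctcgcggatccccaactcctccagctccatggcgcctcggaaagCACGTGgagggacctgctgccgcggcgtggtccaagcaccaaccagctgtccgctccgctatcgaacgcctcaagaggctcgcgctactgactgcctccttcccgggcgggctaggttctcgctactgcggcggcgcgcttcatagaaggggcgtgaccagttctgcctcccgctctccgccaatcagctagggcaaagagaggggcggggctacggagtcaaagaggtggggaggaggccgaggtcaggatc
Impdh2: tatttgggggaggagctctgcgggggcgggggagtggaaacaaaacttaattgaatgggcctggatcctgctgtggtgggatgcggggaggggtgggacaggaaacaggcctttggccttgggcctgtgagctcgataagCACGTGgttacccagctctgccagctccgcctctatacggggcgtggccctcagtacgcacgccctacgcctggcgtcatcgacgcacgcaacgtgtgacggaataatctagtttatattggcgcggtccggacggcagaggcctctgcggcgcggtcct

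In the order of the 24 h falls Atic came first (-2.23), Paics 8th (-1.18) and Impdh2 last (-0.80). Gart and Umps, with no E-box in their windows, came next after Atic with -2.23 and -2.14. Whether the E-box bears on the falls was not tested.

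The other genes of nucleotide metabolism were read from 7 lists of 76 genes, of which 60 were in the table. At 24 h, when 31.9% of all genes were called lower and 31.0% higher, the rest of the de novo routes held 6 lower and 3 higher of 10, with a median log2 difference of -0.58. Prps1, which makes the activated ribose PRPP, was lower (-2.23, adjusted p = 1.17e-14), and so was Dhodh, the mitochondrial dihydroorotate dehydrogenase between Cad and Umps (-2.09, adjusted p = 1.44e-09). Lower as well were Ctps, which converts UTP to CTP (-1.89, adjusted p = 5.21e-13), and Adss, which begins the branch to AMP (-0.46, adjusted p = 0.00469). Higher were Adssl1, the muscle-type paralog of Adss (2.83, adjusted p = 9.26e-13), and Ctps2 (1.58, adjusted p = 1.64e-09). Adssl1 was higher in Ikaros cells before the drug as well (1.62 at 0 h, adjusted p = 8.12e-07).

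Mitochondrial and cytosolic enzymes that load folate with carbon units supply the formyl groups used by Gart and Atic. All 5 in the table (of 8 listed) were called lower, with a median of -2.11. Shmt1, a serine hydroxymethyltransferase, had a log2 difference of -2.84 ± 0.14 (adjusted p = 3.12e-15) and Mthfd2, the mitochondrial methylene-folate dehydrogenase, of -2.21 ± 0.12 (adjusted p = 1.92e-14). At 6 h the same list had 1 lower and 1 higher, and at 12 h 3 lower.

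Of 10 salvage genes, which recover bases and nucleosides, 7 were lower and 1 higher, with a median of -0.94. Pnp2 and Pnp, purine nucleoside phosphorylases, had log2 differences of -3.68 and -3.34 (adjusted p = 5.58e-13 and 2.4e-17), but they are close copies whose reads can be confused. Both were already lower at 0 h (-1.23, adjusted p = 0.000997, and -0.85, adjusted p = 4.55e-05), as was Ada, adenosine deaminase (-0.63, adjusted p = 0.0108). The only salvage gene called higher was Uck1, a uridine-cytidine kinase (0.44 ± 0.09, adjusted p = 0.000115). The nucleotide kinases held 6 lower and 2 higher of 10, with a median of -1.17. Ak1, an adenylate kinase (-2.16), and Nme1, a nucleoside diphosphate kinase (-1.89), fell most, and the mitochondrial Ak3 (1.25) and Nme3 (1.14) were higher. Ak1 and Nme3 had low values, with group means between 4.06 and 6.23.

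Deoxynucleotide synthesis held 9 lower and 1 higher of 11, with a median of -1.27. The largest falls were those of Dctd, the dCMP deaminase (-3.19 ± 0.17, adjusted p = 1.34e-14), and Tyms, the thymidylate synthase (-2.97 ± 0.15, adjusted p = 4.3e-15). The gene that rose was Rrm2b, the p53-inducible subunit of ribonucleotide reductase (1.77 ± 0.12, adjusted p = 4.92e-13), and at 0 h it was lower (-0.40, adjusted p = 0.0301). Breakdown and nucleotidase genes held 6 lower and 3 higher of 10, with a median of -0.33. Nt5c3, a pyrimidine 5′-nucleotidase (-1.18), and Ampd2, an AMP deaminase (-0.70), fell most, while Xdh, xanthine dehydrogenase (1.89), and Samhd1, a dNTP triphosphohydrolase (1.29), were higher. The values of Xdh were low, with group means of 3.98 and 5.87. The nucleoside transporters split, with Slc29a2 (-3.12) and Slc29a1 (-2.05) lower and Slc28a2 (2.66) and Slc29a3 (1.18) higher. At 0 h Slc28a2 had been lower in Ikaros cells (-1.29, adjusted p = 2.23e-05).

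**Figure D4:**
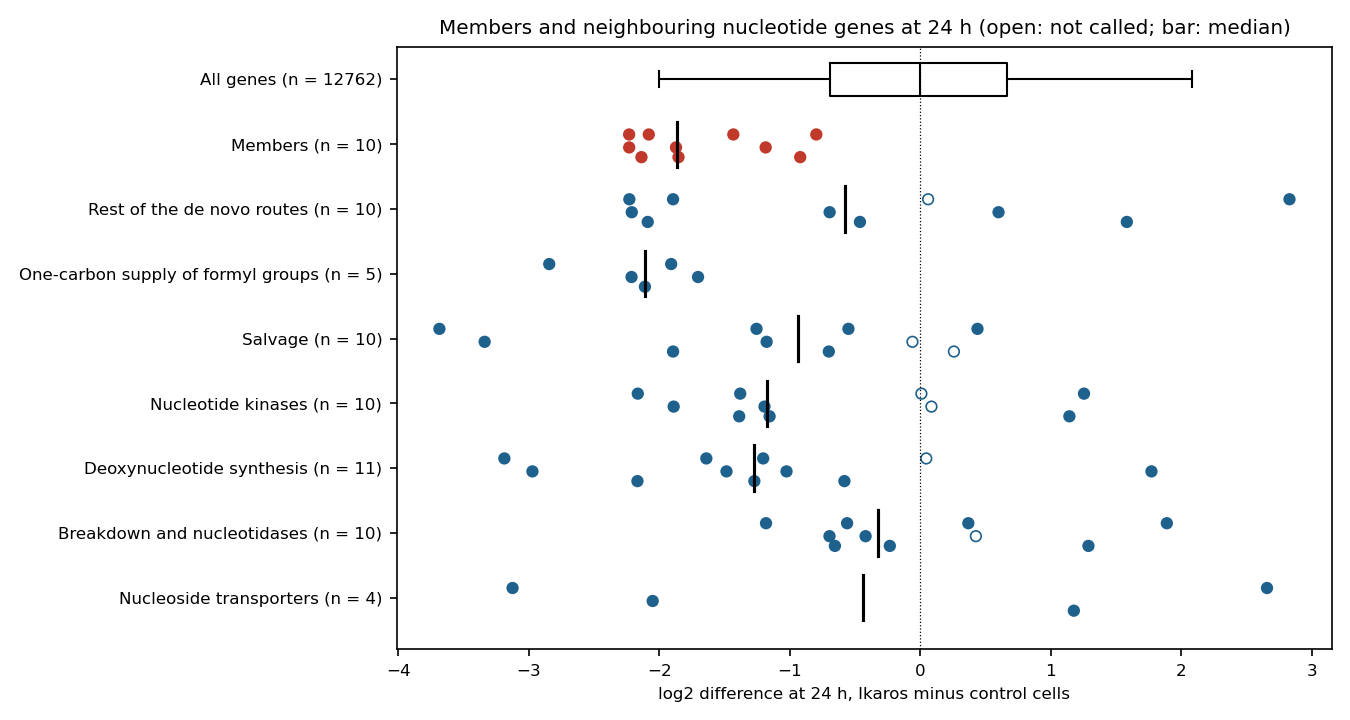
Log2 difference between Ikaros and control cells at 24 h (x axis) for the members (red) and for the genes of each list (blue), 1 point a gene, open where limma did not call the gene, with a black bar at the median; the box shows the quartiles of all 12762 genes and its whiskers the 5th and 95th percentiles. The median is -1.86 over the members and -2.11 over the one-carbon genes, while every other list has genes on both sides of 0.

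The 5 genes outside the members whose 12 group means followed the mean of the members' group means most closely were Nsun2 (Pearson r = 0.998), an RNA cytosine methyltransferase, Rrp12 (0.997), a ribosome assembly factor, Rcc1 (0.996), the exchange factor of Ran, Ifrd2 (0.995) and Enoph1 (0.995), an enzyme of methionine salvage. These values are a description over 12 means that share libraries, and 641 genes (5.03% of those outside the members) exceeded 0.95. At 24 h their log2 differences between Ikaros and control cells were -2.17, -2.44, -2.05, -3.12 and -1.85 in the same order. Among the members, r with their own mean was highest for Umps (0.997) and lowest for Impdh2 (0.866). Ranked by Spearman correlation, the 5 nearest genes shared 0 with these.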

How the data were processed

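Values were the deposited log2 expression of 12762 genes in 36 libraries of polyadenylated, strand-marked RNA. Per the labels and the methods of the study, the authors aligned reads with TopHat2 to mm10, counted them with HTSeq, corrected GC content and length with cqn, removed a library preparation effect with ComBat and shifted the values so that the lowest was 1. The log base is not stated in the file and was taken as 2, as cqn gives. These steps can shrink batch differences, and p-values do not carry their uncertainty. Counts were not used here, so depth is unknown.

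limma 3.58.1 (R 4.3.3) was fitted with a mean for each of 12 groups, contrasts and eBayes, with Benjamini-Hochberg adjustment over all genes and calls at adjusted p under 0.05. It was tested on simulated data. Fold changes are 2 raised to the log2 difference. Tables, exact permutation tests and figures were made in Python 3.11.15 with pandas 2.3.3, scipy 1.17.1 and matplotlib 3.10.9. The table was matched by Ensembl ID to GENCODE M21, and a further row with the symbol Uck2, whose ID is not in that annotation, was left out of the lists.

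Batch numbers pair the libraries, because cells of a batch were harvested together. Deviations of the 18 same-batch pairs from their group means correlated between -0.06 and 0.51 (median 0.13, over 0.1 in 12 pairs). Alternatives were a replicate block, the 0 h cultures as batches of their own in it, a filter that dropped genes whose mean lay under the 25th percentile, quantile normalization, trend and robust settings of eBayes, only the compared groups, and each replicate or library left out.

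Members, lists and motifs were chosen with earlier results of these data known. Named besides the members were, from each list, up to 2 called genes with the largest fall and 2 with the largest rise at 24 h, with Impdh1, Dhodh, Adss and Ctps, opposite-strand genes with starts within 1000 bases, and the 5 most similar genes.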

Additional observations from a re-analysis of the deposited data

Results flagged for a closer look

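How far the 2 lines differed changed with time. The change in that difference from 0 h to 24 h, tested as an interaction in limma, passed for all 10 members. On the log2 scale it was -2.10 for Ppat, -2.13 for Gart, -1.67 for Pfas, -1.20 for Paics, -1.43 for Adsl, -2.32 for Atic, -0.93 for Impdh2, -0.85 for Gmps, -1.78 for Cad and -2.04 for Umps. The same test against 0 h passed for 1 member at 6 h (Umps), 10 at 12 h and 9 at 18 h, and against 2 h it passed for 10 at 24 h. Groups of 3 libraries were not searched for single outlying values.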

How the results depend on the processing

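At 24 h all 10 members were called lower between the lines under every alternative that was run. The shares of all genes called under the alternatives are not given here. The counts of members that moved by more than 1.5 times did so as follows. With the replicate block, 1 member was called between the lines at 2 h (0 in the fit reported), 4 in Ikaros cells at 2 h against 0 h (0 reported) and 4 in control cells at 6 h against 0 h (0 reported). With the 0 h cultures as batches of their own in that block, 2 were called between the lines at 2 h, 2 for the 6 h difference compared with 0 h and 8 in Ikaros cells from 6 to 12 h. The replicate block changed no other count by that much. With only the compared groups in the fit, 1 was called between the lines at 6 h, and in Ikaros cells 0 from 2 to 6 h, 0 from 6 to 12 h and 1 from 18 to 24 h. The filter, quantile normalization and the trend and robust settings each called 1 in Ikaros cells at 2 h against 0 h.

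With a replicate or library left out, counts ran from 0 to 2 between the lines at 2 h, 2 to 4 at 6 h, 0 to 1 for the 6 h and 4 to 10 for the 12 h difference compared with 0 h, 0 to 2 and 3 to 6 in Ikaros cells at 2 and 6 h against 0 h, and 0 to 2, 0 to 6 and 0 to 5 from 2 to 6 h, 6 to 12 h and 18 to 24 h. Some differences that were not called changed sign, all near 0. Adsl at 0 h became 0.0014 under quantile normalization. With libraries left out, differences at 0 h ran from -0.0294 to 0.0212 for Adsl, -0.1707 to 0.0251 for Cad, -0.1612 to 0.0046 for Gart, -0.1492 to 0.0147 for Gmps, -0.0458 to 0.0856 for Paics and -0.0984 to 0.2075 for Ppat, and at 2 h from -0.0237 to 0.1325 for Atic and -0.0779 to 0.1913 for Impdh2. The cause was not tested. The filter changed the median of the salvage list to -0.70 and of the breakdown list to -0.42.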

Other observations

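Pairs of genes for related enzymes in the lists went different ways over time, and the pairs below were picked after their values were seen. Ctps was called lower from 12 h (-0.74, -1.28 and -1.89 at 12, 18 and 24 h), while Ctps2 was called higher at the same times (0.84, 1.03 and 1.58). Rrm2, the S-phase subunit of ribonucleotide reductase, was called between the lines only at 24 h (-1.02, adjusted p = 0.00196 by limma), whereas Rrm2b was lower at 0 and 2 h (-0.40, adjusted p = 0.0301, and -0.34, adjusted p = 0.0405), was not called at 6 h (0.25) and was higher from 12 h (0.48, 1.79 and 1.77). Adssl1 was higher at 0, 2 and 6 h (1.62, 1.04 and 0.91), was not called at 12 h (0.40, adjusted p = 0.0928) and was higher again at 18 and 24 h (2.22 and 2.83). The difference between the genes of a pair was not tested.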
